A study of Mus musculus with 6 samples.

Results

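Wnt signalling in the developing mouse secondary palate was examined through 55 genes that encode Wnt ligands, their receptors, their inhibitors and genes known to respond to the pathway. The genes fell into 6 classes, with 16 ligands, 13 Frizzled and Lrp receptors, 10 inhibitors, 7 R-spondins and Lgr receptors, 7 response genes and 2 genes needed to export ligands. They were taken by symbol from a list drawn up with earlier results of these data known, and each of the 55 matched 1 of the 56691 gene identifiers that were counted. RNA came from palatal shelves of C57BL/6J mouse embryos at E14.0, with 3 bulk RNA-seq libraries of the anterior 1/3 and as many of the posterior 1/3. The labels name no mutation, transgene or treatment in either group, and they separate the groups only by the region that was dissected. The study calls the libraries biologically independent, and how many embryos entered each library is not given in the sources used here.

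Wnt proteins are secreted, lipid-modified ligands that bind Frizzled receptors on nearby cells. Together with the coreceptors Lrp5 and Lrp6 they stop the breakdown of beta-catenin, which then joins TCF/LEF factors on DNA, while ligands such as Wnt5a and Wnt11 also act through routes that do not need beta-catenin and that shape cell movement and polarity. R-spondins bound to Lgr receptors raise the number of Frizzled receptors on the cell surface, whereas Dkk, Sfrp and Wif proteins hold the pathway back outside the cell. Mice that lack Wnt5a, Wnt9b, Rspo2, or Fzd1 together with Fzd2, have clefts of the palate.

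The libraries held 11378736 to 15172733 reads assigned to genes on the transcribed strand. Posterior replicates 2 and 3 stood apart from the other 4 libraries: 6.12% and 5.94% of their reads mapped to several places against 8.45% to 8.77% elsewhere, and mitochondrial genes took 0.973% and 1.14% of their counts against 2.70% to 2.97%. For this reason every test between regions was repeated with a term for this library group, a fit in which posterior replicate 1 is the only posterior library set against the anterior 3. The region labels were in order for Msx1, known from the anterior palate, at 146, 184 and 282 CPM (counts scaled to a library of 1000000) in the anterior libraries and 1.05, 1.37 and 1.03 in the posterior libraries. Both tissues of the shelf were sampled, with epithelial markers summing to between 1259 and 1994 CPM in each library and mesenchyme markers to 8009 to 8137 CPM in anterior and 9399 to 15943 CPM in posterior libraries (3 of 8 called higher in the posterior palate and 1 in the anterior palate). Col1a2, not called, held 3068 to 3597 CPM of the anterior and 3741 to 7345 CPM of the posterior sums. Prrx1 went the other way, at 1036 to 1078 CPM in anterior and 390 to 460 CPM in posterior libraries. Chondrocyte markers summed to 255 to 383 CPM in anterior and 599.8 to 901 CPM in posterior libraries (2 of 7 tested called, both higher in the posterior palate), and neuronal markers to 38.6 to 45.4 CPM in anterior and 70.2, 314 and 45.0 CPM in posterior libraries (2 of 6 tested called, likewise). Skeletal muscle markers differed most among the lists, with 10 of 10 higher in the posterior palate (against 4.87% of all genes) and summed levels of 8.35 to 14.1 CPM in anterior and 617 to 1102 CPM in posterior libraries. Of these 10, Myf5, Myod1 and Smyd1 passed the filter on low counts (10 counts or more in 3 or more libraries) only through the posterior libraries, so they had to differ to be tested. The part of these cell types in the results for posterior genes was not tested. In bulk tissue, fewer cells of a type and less RNA per cell cannot be told apart.

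Of the 55 genes, 51 had at least 10 counts in at least 3 libraries and were tested. At an adjusted p under 0.05 in edgeR's quasi-likelihood test, 17 of the 51 differed between regions, which is 33.3%, against 7.46% of all 15673 genes tested. Higher levels in the anterior palate were called for 7 (13.7%, against 2.59% of all genes), and higher levels in the posterior palate for 10 (19.6%, against 4.87%). In 14 of the 17 the difference was at least 1 on the log2 scale. The median log2 fold change of the tested genes, posterior over anterior, was 0.08, with a range from -2.80 to 2.83, against -0.0040 over all genes. Each class except ligand export held at least 1 called gene, and 4 of the 6 classes held called genes on both sides. With the library-group term, 22 were called, 11 higher in the anterior palate (against 3.21% of all genes) and 11 higher in the posterior palate (against 4.4%). All 17 called genes kept their direction in that fit and 16 kept their call, the exception being Axin2.

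**Figure D1:**
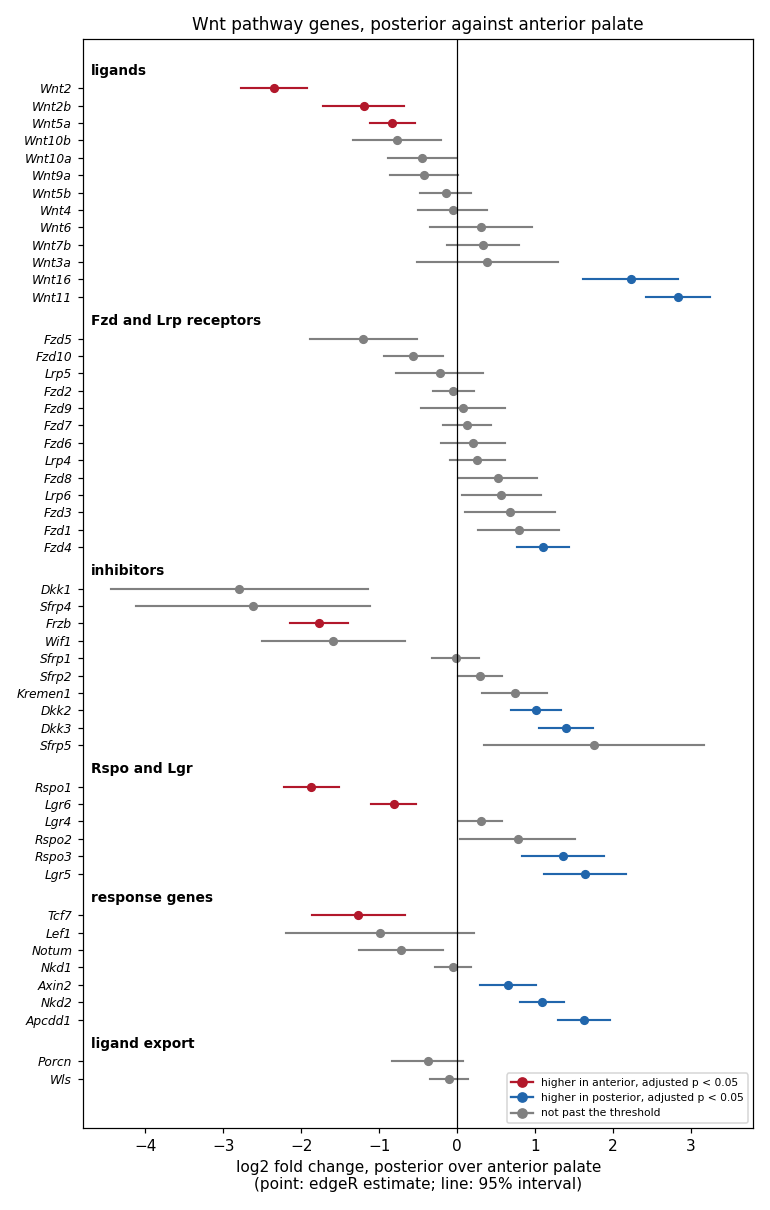
Log2 fold change of each of the 51 tested genes, posterior over anterior palate (x axis; point, edgeR estimate; line, 95% interval), grouped by class (y axis). The 7 red points lie left of 0 and the 10 blue points right of 0, and calls on both sides appear among ligands, inhibitors, R-spondins with Lgr receptors, and response genes.

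The 3 anterior and the 3 posterior values did not overlap in 30 of the 51 tested genes, including all 17 that were called. All anterior values were higher in 29.4% (13.4% of all genes) and all posterior values were higher in another 29.4% (14.7% of all genes). Of the 34 genes not called, 13 also showed no overlap, 16 had a positive and 18 a negative fold change. When posterior replicate 1 was left out, 19 of these 34 passed the threshold and 36 genes passed in all, 15 higher in anterior and 21 in posterior palate, but 21.1% of all genes were then called higher in the anterior palate and 25.3% higher in the posterior palate, and region could no longer be told apart from the library group. The remaining 4 genes were not tested. Wnt3 had 0, 1 and 4 counts in the anterior and 2, 0 and 0 in the posterior libraries, and Wnt7a had 1 count in anterior replicate 1 and 0 elsewhere, where a count of 0 allows a level of up to 0.198 to 0.264 CPM (3 counts, counting error only). Wnt9b, a ligand of facial ectoderm, had 3, 1 and 2 counts in the anterior and 8, 9 and 5 in the posterior libraries. Rspo4 had 1, 4 and 23 counts in the anterior and 2, 3 and 5 in the posterior libraries.

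Promoter sequence was given for 35 of the 55 genes, in 42 promoters of 300 bases (250 before the start of transcription and 50 after it, RefSeq, GRCm38.p6). The core of the site that TCF/LEF factors bind, CTTTGA, lay on either strand in 6 of the 42 (14.3%), and in 5257 of all 32851 promoters (16.0%). The longer form ATCAAAG, which contains the core read on the other strand, lay in 2 of the 42 (4.76%) against 3.73% of all promoters. The 6 promoters belonged to Wnt11, Wnt5b, Fzd1, Frzb, Dkk1 and Lef1. Wnt5b and Lef1 have several listed promoters, and their matches lay in a promoter inside the gene, while those at its start held none. Each stretch of 30 bases that holds a core is printed here 5′ to 3′ on the strand of its gene, because TCF/LEF factors carry the pathway's output, with the core or its reverse complement in capitals.
Wnt11, chr7:98835050-98835079, plus strand: gacgtgggcggaTCAAAGcgacggtccgcg
Wnt5b, chr6:119449440-119449469, minus strand: gagtaagtctctCTTTGAtctgctccctgt
Fzd1, chr5:4758437-4758466, minus strand: cgcagcacTCAAAGtagcagtctgtgacca
Frzb, chr2:80447474-80447503, minus strand: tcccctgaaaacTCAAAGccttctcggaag
Dkk1, chr19:30549653-30549682, minus strand: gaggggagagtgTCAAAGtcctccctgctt
Dkk1, chr19:30549596-30549625, minus strand: ctcctcccaaagCTTTGAaatcccatcccg
Lef1, chr3:131156102-131156131, plus strand: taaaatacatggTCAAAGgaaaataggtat
Lef1, chr3:131156162-131156191, plus strand: cattgtctgttcTCAAAGtcaggtcttgca
Of these 6 genes, Wnt11 was called higher in the posterior palate and Frzb in the anterior palate, and the other 4 were not called. Dkk1 and Lef1 each held 2 cores. The windows of the called response genes Axin2, Tcf7 and Nkd2 held none. These are matches of letters within a short window, and no binding was measured here.

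Among the 13 ligands tested, 3 were higher in the anterior palate, 2 were higher in the posterior palate and 8 were not called. Wnt2, known from heart and lung mesoderm, had 13.3, 14.5 and 11.9 CPM in anterior replicates 1, 2 and 3, and 2.17, 2.82 and 2.81 CPM in posterior replicates 1, 2 and 3. The regions did not overlap, and its log2 fold change was -2.34 (SE 0.18, edgeR adjusted p = 0.000517). Wnt2b, its closest relative, stood at 8.80, 8.94 and 10.2 CPM in anterior and 3.59, 3.25 and 5.28 CPM in posterior libraries. It was thus also higher in every anterior library, with a log2 fold change of -1.20 (SE 0.22, edgeR adjusted p = 0.0182). The call for Wnt2b was lost when any anterior library or posterior replicate 2 was left out, with adjusted p of 0.0683, 0.0763, 0.0767 and 0.0740. Its fold change then lay between -1.24 and -1.06.

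Wnt5a, a ligand of shelf mesenchyme that mostly acts without beta-catenin, was the most abundant ligand per unit of transcript length on average over all libraries. Its level was 230, 256 and 266 CPM in the anterior and 155, 120 and 147 CPM in the posterior libraries. All anterior libraries were higher, and the log2 fold change was -0.84 (SE 0.12, edgeR adjusted p = 0.0070), the smallest among the called ligands. Wnt11, at chr7:98835112-98855195 (GRCm38), showed the largest change of the 55 genes toward the posterior palate. It had 8.73, 10.1 and 9.17 CPM in the anterior and 55.8, 60.7 and 83.0 CPM in the posterior libraries, with a log2 fold change of 2.83 (SE 0.18, edgeR adjusted p = 0.000194), or 7.12-fold. Its first listed promoter carries the motif match above, 50 bases before the start. That stretch of 250 bases is shown, chosen after the values were seen, because Wnt11 had this change and holds a match.
Wnt11, chr7:98834862-98835111, plus strand: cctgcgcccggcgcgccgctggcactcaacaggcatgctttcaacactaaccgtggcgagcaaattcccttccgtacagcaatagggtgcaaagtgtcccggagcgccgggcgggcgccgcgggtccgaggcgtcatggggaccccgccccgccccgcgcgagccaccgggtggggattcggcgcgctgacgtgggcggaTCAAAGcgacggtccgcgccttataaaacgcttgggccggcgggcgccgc
Wnt16, known for its role in bone, had 8.73, 4.36 and 5.88 CPM in the anterior and 31.9, 23.8 and 33.1 CPM in the posterior libraries. It was higher in every posterior library, with a log2 fold change of 2.23 (SE 0.26, edgeR adjusted p = 0.00288). The calls for Wnt2, Wnt5a, Wnt11 and Wnt16 held in all 15 alternative fits.

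The summed ligand level hardly differed, whereas its makeup did. Per unit of transcript length, the 16 ligands summed to 279, 280 and 299 TPM (transcripts scaled to a library of 1000000) in the anterior and 294, 275 and 316 TPM in the posterior libraries, which overlap. Wnt5a made up 37.8% ± 1.74 of this sum in anterior and 21.9% ± 0.520 in posterior palate (SD, n = 3 each). Wnt11 went from 2.66% ± 0.200 to 19.7% ± 4.44 (SD, n = 3 each), so that it stood close to Wnt5a in the posterior palate. The TPM ratio of Wnt11 to Wnt5a was 0.0717, 0.0746 and 0.0651 in the anterior libraries and 0.681, 0.958 and 1.07 in the posterior libraries. No test was made of these shares and ratios.

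**Figure D2:**
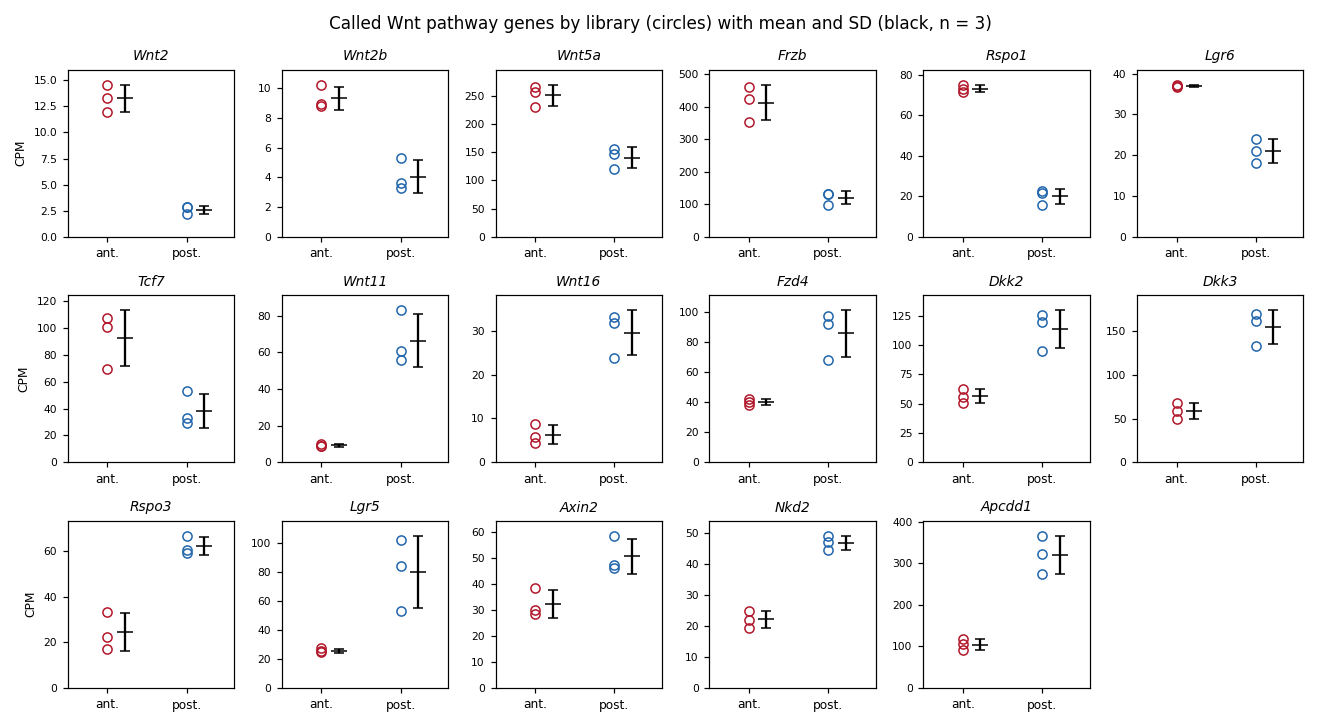
Normalized level (y axis, CPM, starting at 0 in each panel) of the 17 called genes in the 3 anterior (red circles) and 3 posterior (blue circles) libraries, with the mean and SD in black. The circles of the 2 regions do not overlap in any panel, with anterior libraries higher in the first 7 panels and posterior libraries higher in the other 10.

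The ligands that were not called included several known from oral and dental epithelium. Wnt10a and Wnt10b, both of early tooth epithelium, did not overlap between regions. Wnt10a had 9.86, 9.45 and 11.4 CPM in the anterior and 9.21, 6.79 and 6.45 CPM in the posterior libraries (edgeR adjusted p = 0.186), and passed only without posterior replicate 1 (log2 fold change -0.62, edgeR adjusted p = 0.0125). Wnt10b had 17.8, 17.0 and 13.9 CPM in the anterior and 9.88, 6.29 and 12.3 CPM in the posterior libraries, with a log2 fold change of -0.77 (SE 0.24, edgeR adjusted p = 0.109), and passed in 3 of 15 alternative fits, among them that without posterior replicate 1 (-0.79, edgeR adjusted p = 0.0389). The dental epithelium markers were also higher in the anterior palate (4 of the 5 tested, against 2.59% of all genes, summed 159, 209 and 239 CPM against 88.3, 78.5 and 90.4 CPM, with Amelx at 0 in all libraries), and their part in these values was not tested. Lhx6, 1 of the 4 and also known from dental mesenchyme, made up 78.6, 102 and 98.5 CPM of the anterior sums. Ambn, another of the 4, had 258, 327 and 154 counts in the anterior and 0, 2 and 10 in the posterior libraries. It passed the filter on low counts through the anterior libraries, where it is high, so the filter favoured this direction. Wnt6 and Wnt4 were highest in posterior replicate 1. Wnt6 had 14.6, 15.6 and 19.3 CPM in the anterior and 30.02, 13.9 and 17.3 CPM in the posterior libraries, so that the call with the library-group term (log2 fold change 0.87, edgeR adjusted p = 0.0291) rests on that library. Without posterior replicate 1 its fold change was -0.075. Wnt4 had 40.4, 36.9 and 36.6 CPM in the anterior and 48.4, 31.8 and 29.3 CPM in the posterior libraries, with a log2 fold change of -0.06, and without posterior replicate 1 it passed the threshold at -0.31 (edgeR adjusted p = 0.0216). Summed epithelial markers were likewise higher in posterior replicate 1, at 1994 CPM, than in replicates 2 and 3, at 1429 and 1259 CPM, and their part was not tested. The list was uneven: 4 of its 12 genes were highest in posterior replicate 1, Krt14 among them (572, 327 and 243 CPM in the posterior libraries), whereas Esrp1, Grhl2 and Trp63 were lower there than in replicates 2 and 3. Wnt3a, Wnt5b, Wnt7b and Wnt9a had log2 fold changes between -0.43 and 0.39 and were called in no fit.

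Several ligands lie next to each other on the chromosome. Wnt6 and Wnt10a are 6194 bases apart on chromosome 1, Wnt3a and Wnt9a are 16176 bases apart on chromosome 11, and Wnt3 and Wnt9b are 24329 bases apart on the same chromosome. Of these 6 genes, 4 were tested and none of the 4 was called. Wnt6 and Wnt10a had fold changes of opposite sign, at 0.31 and -0.45 on the log2 scale, with 95% intervals from -0.35 to 0.96 and from -0.89 to -0.02.

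Among the 13 Frizzled and Lrp receptors, 1 was called, higher in the posterior palate, a share near the 7.46% called among all genes. Fzd4, a receptor for Wnt ligands and for Norrin in blood vessels, had 40.1, 42.0 and 38.3 CPM in the anterior and 68.3, 92.0 and 97.3 CPM in the posterior libraries. All posterior libraries were higher, with a log2 fold change of 1.097 (SE 0.14, edgeR adjusted p = 0.00451), and the call held in all 15 alternative fits. The 8 endothelial markers summed to 481, 500.4 and 504 CPM in the anterior and 418, 617 and 663 CPM in the posterior libraries. None of them was called in the same fit, but 5 were called higher in the posterior palate without posterior replicate 1 (against 25.3% of all genes), and their part in the level of Fzd4 was not tested. Fzd2, the most abundant receptor per transcript length, had 257, 274 and 310 CPM in the anterior and 270, 249 and 293 CPM in the posterior libraries, and its log2 fold change was -0.05 (95% interval -0.31 to 0.21).

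Fzd1, which acts with Fzd2 in palate closure, had 115, 126 and 189 CPM in the anterior and 192, 277 and 274 CPM in the posterior libraries. The regions did not overlap, yet anterior replicate 3 and posterior replicate 1 were close, and the log2 fold change of 0.79 (SE 0.22, edgeR adjusted p = 0.0794) did not pass. It passed in 5 of 15 alternative fits, among them those without anterior replicate 3 (1.04, edgeR adjusted p = 0.0399) and without posterior replicate 1 (0.95, edgeR adjusted p = 0.00413). Fzd5 had 30.7, 31.1 and 20.9 CPM in the anterior and 7.04, 13.4 and 15.5 CPM in the posterior libraries, with no overlap and a log2 fold change of -1.20 (SE 0.29, edgeR adjusted p = 0.0512). It fell just short of passing the threshold. With the library-group term its log2 fold change was -1.97, and it was called in 7 of the other 14 alternative fits. Fzd10 had 25.2, 34.0 and 33.9 CPM in the anterior and 22.2, 17.8 and 23.0 CPM in the posterior libraries, with a log2 fold change of -0.57 (SE 0.16, edgeR adjusted p = 0.0849), and passed in 3 of 15 alternative fits, among them that without posterior replicate 1 (-0.60, edgeR adjusted p = 0.0204).

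For several receptors the posterior libraries disagreed among themselves. Fzd3, a receptor of planar polarity, had 53.4, 52.6 and 54.0 CPM in the anterior libraries and 51.5, 107 and 98.0 CPM in the posterior libraries. Posterior replicate 1 thus sat at the anterior level and the other two well above it. Lrp6, a coreceptor of the beta-catenin route, likewise had posterior replicate 1 at the anterior level and the other two above it, at 180, 166 and 165 against 165, 281 and 311 CPM. Its relative Lrp5 was lowest in posterior replicate 1, at 214, 198 and 194 against 109, 178 and 230 CPM, and was called only with the library-group term (-0.88, edgeR adjusted p = 0.00877). Without posterior replicate 1 its fold change was 0.021. Fzd8 had 41.8, 42.6 and 34.8 CPM in the anterior and 38.6, 67.6 and 65.3 CPM in the posterior libraries, and Fzd6 had 28.5, 27.6 and 27.4 against 23.4, 35.7 and 37.03 CPM. In both, posterior replicate 1 lay within or below the anterior values and the other two above them. Fzd7 had 128, 124 and 142 against 120, 146 and 165 CPM. Lrp4, a relative of Lrp5 and Lrp6, had 51.1, 55.4 and 54.7 against 50.3, 66.7 and 75.8 CPM. These again placed posterior replicate 1 lowest of the 6 libraries. Fzd3, Fzd6, Fzd7, Fzd8, Lrp4 and Lrp6 passed the threshold only without posterior replicate 1, and for Fzd3 also without a filter on low counts, at log2 fold changes of 0.95, 0.39, 0.25, 0.74, 0.41 and 0.80. With the library-group term the same 6 genes had fold changes of -0.050, -0.25, -0.14, -0.043, -0.095 and -0.043, so a difference between regions cannot be told apart from the difference between library groups. Fzd9 had a log2 fold change of 0.08 (95% interval -0.46 to 0.62) and was called in no fit.

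**Figure D3:**
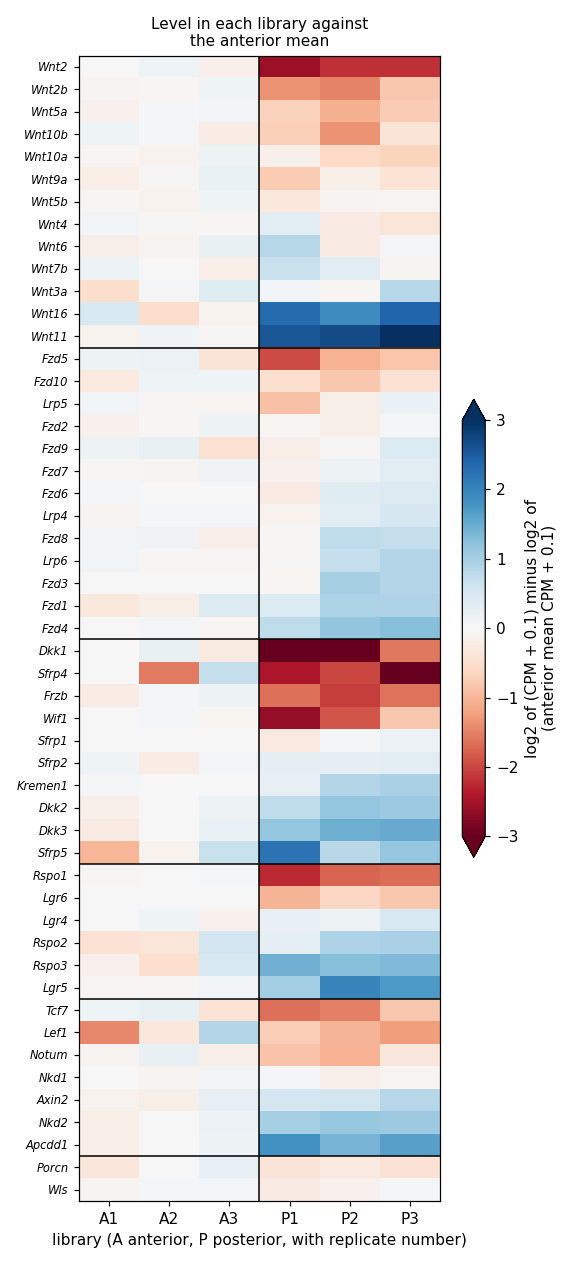
Level of each tested gene (rows, by class) in each library (columns), as log2 of CPM + 0.1 minus log2 of the anterior mean CPM + 0.1, in color from red (lower) to blue (higher), with the scale clipped at -3 and 3. The 3 posterior columns share a color for the called genes, whereas for Fzd3, Fzd8, Lrp6 and Wnt6 posterior replicate 1 differs from replicates 2 and 3.

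Among the 10 inhibitors, 1 was higher in the anterior palate, 2 were higher in the posterior palate and 7 were not called. Frzb, a decoy that binds Wnt ligands through a Frizzled-like domain, had 353, 424 and 460 CPM in the anterior and 132, 97.8 and 133 CPM in the posterior libraries. It was higher in every anterior library, with a log2 fold change of -1.77 (SE 0.16, edgeR adjusted p = 0.000897), or 3.42-fold. Dkk2 and Dkk3 went the other way. Dkk2, which binds Lrp5 and Lrp6, had 50.4, 56.1 and 62.6 CPM in the anterior and 94.9, 125 and 120 CPM in the posterior libraries (log2 fold change 1.01, SE 0.14, edgeR adjusted p = 0.00502). Dkk3, a more distant family member, had 49.5, 59.1 and 68.0 CPM in the anterior and 133, 162 and 169 CPM in the posterior libraries (1.39, SE 0.15, edgeR adjusted p = 0.00194). The regions did not overlap for either gene, and the calls for Frzb, Dkk2 and Dkk3 held in all 15 alternative fits.

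Dkk1, the best studied inhibitor of Lrp5 and Lrp6, had 71.0, 83.5 and 59.6 CPM in the anterior and 2.69, 4.05 and 23.9 CPM in the posterior libraries. Every anterior library was higher, but posterior replicate 3 stood well above replicates 1 and 2, and the log2 fold change of -2.80 (SE 0.71, edgeR adjusted p = 0.0579) did not pass. It passed in 7 of 15 alternative fits, with adjusted p up to 0.186 in the others. Without posterior replicate 3 it was -4.39 (edgeR adjusted p = 0.000765), without posterior replicate 1 it was -2.34 (edgeR adjusted p = 0.00779), and with the library-group term it was -4.72 (edgeR adjusted p = 0.0186). Wif1, which binds Wnt ligands directly, followed the same order at 97.3, 98.5 and 92.8 CPM in the anterior and 15.5, 26.0 and 54.4 CPM in the posterior libraries. Its log2 fold change was -1.59 (SE 0.39, edgeR adjusted p = 0.0538), and it also passed in 7 of 15 alternative fits, with adjusted p up to 0.200 in the others. Without posterior replicate 3 it was -2.21 (edgeR adjusted p = 0.00452), without posterior replicate 1 it was -1.25 (edgeR adjusted p = 0.00479), and with the library-group term it was -2.63 (edgeR adjusted p = 0.00470).

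Osteoblast markers varied across the same libraries. The 8 markers summed to 3600, 2927 and 1994 CPM in the anterior and 296, 512 and 1851 CPM in the posterior libraries, and Bglap was at or near 0 in all. Of the 7 tested, 1 was called higher in the anterior palate (Dmp1, against 2.59% of all genes), as were 6 with the library-group term (against 3.21% of all genes) and 4 without posterior replicate 1 (against 21.1%). Ibsp, a protein of mineralizing bone, had 2692, 2022 and 1403 CPM in the anterior and 17.9, 143 and 1279 CPM in the posterior libraries. Like Dkk1 and Wif1 it was lowest in posterior replicate 1 and, within the posterior palate, highest in replicate 3. Other genes of the 55, among them Fzd5, Lrp5 and Rspo1, had the same order in the posterior libraries. In the anterior libraries Wif1 stayed between 92.8 and 98.5 CPM, while the osteoblast sum fell from 3600 to 1994 CPM. Sost, an inhibitor known from bone cells, was called higher in the anterior palate at low levels of 2.81, 2.98 and 1.38 CPM against 0.0749, 0.289 and 0.480 CPM (log2 fold change -3.03, SE 0.55, edgeR adjusted p = 0.0168). It passed the filter on low counts only through the anterior libraries, with 37, 41 and 16 counts against 1, 4 and 7, so its call had to be in this direction. Whether bone-forming cells account for the levels of Dkk1, Wif1 and Sost was not tested.

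**Figure D4:**
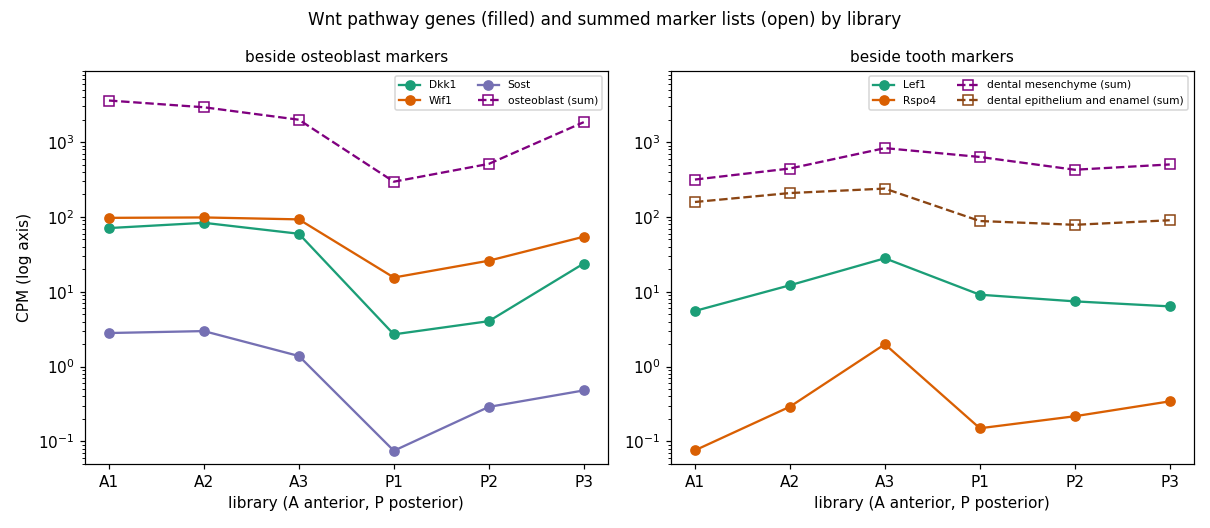
Level in each library (x axis; A, anterior; P, posterior) in CPM on a log axis (y axis) of Wnt pathway genes (filled) beside the summed level of each whole list of cell type markers (open). On the left, Dkk1, Wif1, Sost and the summed osteoblast markers are lowest in posterior replicate 1 and, among posterior libraries, highest in replicate 3, and on the right Lef1, Rspo4 and both summed tooth lists are highest in anterior replicate 3.

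The Sfrp family of Frizzled-like decoys was uneven. Sfrp2 was the most abundant of the 55 genes, with a mean of 1509 TPM, and had 915, 718 and 866 CPM in the anterior and 1001, 1017 and 1045 CPM in the posterior libraries. The posterior libraries were all higher, by a log2 fold change of 0.29 that did not pass (SE 0.12, edgeR adjusted p = 0.188) except without posterior replicate 1 (0.31, edgeR adjusted p = 0.0344). As a share of the summed inhibitor TPM, Sfrp2 made up 55.9% ± 4.22 in anterior and 69.4% ± 3.04 in posterior palate, and Frzb 18.5% ± 2.67 and 5.46% ± 0.951 (SD, n = 3 each). Sfrp4 was rare, with 4.10, 1.31 and 6.75 CPM in the anterior and 0.674, 0.939 and 0.343 CPM in the posterior libraries. Its log2 fold change was -2.61 (SE 0.64, edgeR adjusted p = 0.0525), with passes in 6 of the 14 alternative fits that tested it, among them those without anterior replicate 2 (-3.04, edgeR adjusted p = 0.0222) and without posterior replicate 1 (-2.63, edgeR adjusted p = 0.0212). Sfrp4 had 54, 18 and 78 counts in the anterior and 9, 13 and 5 in the posterior libraries. It passed the filter on low counts through the anterior libraries, where it is high, so the filter favoured this direction. Sfrp5 was also rare, at 2, 5 and 8 counts in the anterior and 30, 11 and 15 in the posterior libraries. It passed the filter on low counts only through the posterior libraries, where it is high. Sfrp5 is among the genes called higher in the posterior palate with the library-group term (log2 fold change 2.49), a direction that the filter favoured. Sfrp1 overlapped between regions, with a log2 fold change of -0.02 (95% interval -0.32 to 0.28). Kremen1, a partner of Dkk proteins at Lrp6, had 69.6, 67.6 and 67.7 CPM in the anterior and 81.4, 125 and 135 CPM in the posterior libraries. Its log2 fold change was 0.74 (SE 0.18, edgeR adjusted p = 0.0521), and it passed in 4 of 15 alternative fits. Among them were DESeq2 (0.73, DESeq2 adjusted p = 0.00386) and the fit without posterior replicate 1 (0.93, edgeR adjusted p = 2.72e-05). With the library-group term the log2 fold change of Kremen1 was only 0.25.

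R-spondins and Lgr receptors split by region, with 2 of the 6 tested higher in the anterior palate and 2 higher in the posterior palate. Rspo1, at chr4:124986430-125009099 (GRCm38), had 71.3, 73.1 and 74.9 CPM in the anterior and 15.5, 21.6 and 22.7 CPM in the posterior libraries. Its anterior values were tight and all higher, with a log2 fold change of -1.87 (SE 0.15, edgeR adjusted p = 0.000572), or 3.66-fold. Rspo3, at chr10:29452416-29535867, had the opposite order, with 22.3, 17.2 and 33.5 CPM in the anterior and 66.8, 59.2 and 60.8 CPM in the posterior libraries. Its log2 fold change was 1.36 (SE 0.22, edgeR adjusted p = 0.0115), and the call was lost without anterior replicate 1 (1.29, edgeR adjusted p = 0.0677).

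Of the receptors of these ligands, Lgr6 and Lgr5 showed the same split, whereas Lgr4, the most abundant of them per transcript length, was not called. Lgr6 had 37.0, 37.2 and 36.6 CPM in the anterior and 18.2, 24.0 and 20.9 CPM in the posterior libraries, with a log2 fold change of -0.81 (SE 0.12, edgeR adjusted p = 0.00797). Lgr5, a response gene and stem cell marker in many epithelia, had 24.6, 25.1 and 27.3 CPM in the anterior and 53.0, 102 and 84.3 CPM in the posterior libraries. All posterior libraries were higher, with a log2 fold change of 1.64 (SE 0.23, edgeR adjusted p = 0.00540), and 1.05 with the library-group term (edgeR adjusted p = 0.00190). Lgr4, another receptor of R-spondins, had 139, 151 and 127 CPM in the anterior and 165, 154 and 194 CPM in the posterior libraries. These did not overlap but lay close, with a log2 fold change of 0.30 (SE 0.12, edgeR adjusted p = 0.172), and Lgr4 passed only without posterior replicate 1 (0.33, edgeR adjusted p = 0.0389). Rspo2 had 5.01, 5.23 and 10.1 CPM in the anterior and 8.38, 12.9 and 13.4 CPM in the posterior libraries. It overlapped between regions (log2 fold change 0.78, 95% interval 0.04 to 1.51, edgeR adjusted p = 0.181) and also passed only without posterior replicate 1 (0.97, edgeR adjusted p = 0.0249).

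Per unit of transcript length, the class as a whole held 260, 259 and 279 TPM in the anterior and 219, 277 and 294 TPM in the posterior libraries, while its members changed places. Rspo1 made up 47.9% ± 0.600 of the class in anterior and 14.1% ± 1.89 in posterior palate, and Rspo3 9.94% ± 3.07 and 27.9% ± 3.75 (SD, n = 3 each). The TPM ratio of Rspo3 to Rspo1 was 0.196, 0.148 and 0.280 in the anterior libraries and 2.70, 1.72 and 1.68 in the posterior libraries. The ratio of Lgr5 to Lgr6 was 0.443, 0.451 and 0.497 in the anterior libraries and 1.94, 2.85 and 2.69 in the posterior libraries. Both ratios lay below 1 in every anterior library and above 1 in every posterior library, and neither was tested.

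**Figure D5:**
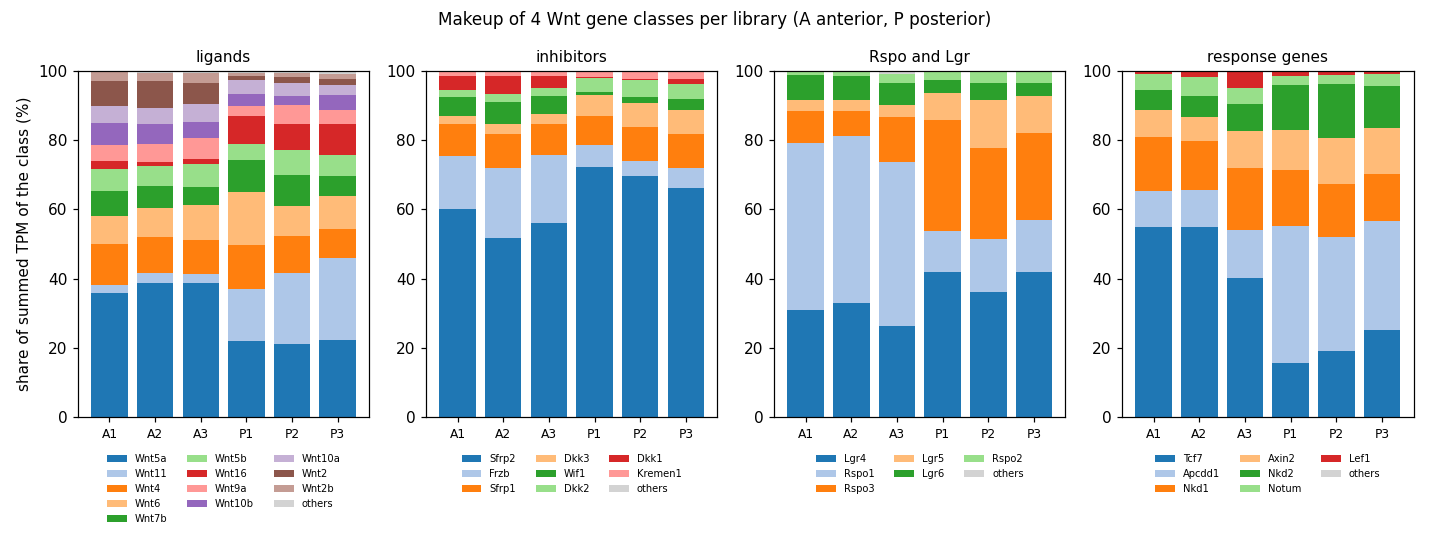
Share of the summed TPM of each of 4 classes taken by each gene (y axis, percent, stacked) in each library (x axis; A, anterior; P, posterior). From anterior to posterior libraries the shares of Wnt5a, Frzb, Rspo1 and Tcf7 shrink and those of Wnt11, Rspo3 and Apcdd1 widen.

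Of the 7 response genes, 3 were higher in the posterior palate, 1 was higher in the anterior palate and 3 were not called. Apcdd1, a membrane protein that is induced by Wnt signals and dampens them, had 91.5, 105 and 117 CPM in the anterior and 365, 274 and 324 CPM in the posterior libraries. It was higher in every posterior library, with a log2 fold change of 1.62 (SE 0.14, edgeR adjusted p = 0.000807), or 3.08-fold. Nkd2, which binds Dishevelled and is another feedback inhibitor, had 19.3, 22.03 and 25.0 CPM in the anterior and 44.5, 49.0 and 47.2 CPM in the posterior libraries (log2 fold change 1.09, SE 0.12, edgeR adjusted p = 0.00240). Its paralog Nkd1 overlapped between regions, with a log2 fold change of -0.05 (95% interval -0.28 to 0.18).

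Axin2, a widely used readout of beta-catenin signalling, had 29.97, 28.4 and 38.5 CPM in the anterior and 46.3, 47.3 and 58.6 CPM in the posterior libraries. All posterior values were higher, but by a log2 fold change of only 0.65 (SE 0.15) that passed narrowly (edgeR adjusted p = 0.0462). The call was lost with the library-group term (0.52, edgeR adjusted p = 0.144) and without anterior replicate 1 or 2 or posterior replicate 2 or 3 (0.54 to 0.70, edgeR adjusted p from 0.115 to 0.200), and narrowly with library size only or a stricter filter (edgeR adjusted p = 0.0522 and 0.0526). Tcf7, a TCF/LEF factor and itself a response gene, went the other way. It had 101, 108 and 69.2 CPM in the anterior and 29.5, 32.7 and 52.9 CPM in the posterior libraries, with a log2 fold change of -1.27 (SE 0.26, edgeR adjusted p = 0.0253). Of the fits that leave out a library, it lost its call without anterior replicate 1 or 2 or posterior replicate 2 (-1.21 to -1.15, edgeR adjusted p from 0.104 to 0.114). Like the summed osteoblast markers, Tcf7 was lowest in replicate 3 among anterior libraries and lowest in replicate 1 and highest in replicate 3 among posterior libraries, and the part of bone-forming cells in its level was not tested.

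Lef1, the relative of Tcf7, overlapped between regions at 5.54, 12.2 and 28.0 CPM in the anterior and 9.13, 7.44 and 6.38 CPM in the posterior libraries (log2 fold change -0.99, SE 0.52, edgeR adjusted p = 0.271). Its anterior values spread over a wide range with anterior replicate 3 highest, as did those of Rspo4. The tooth lists, summed, were also highest in that library: the 7 dental mesenchyme markers stood at 316, 444 and 832 CPM in the anterior and 634, 428 and 503 CPM in the posterior libraries, and the dental epithelium markers at 239 CPM in anterior replicate 3. Their members were uneven. Of the 7, Tfap2b (1.97, 15.4 and 117 CPM in the anterior libraries), Dlx2, Sostdc1 and Msx1 were highest in anterior replicate 3, whereas Barx1, Bmp4 and Dlx1 were highest in posterior replicate 1. Of the 8 dental epithelium markers, 5 were highest in anterior replicate 3, Ambn and Lhx6 were highest in anterior replicate 2, and Amelx was at 0 throughout. In the dental mesenchyme list 1 gene was called on each side, and the part of dental tissue in the levels of Lef1 and Rspo4 was not tested. Notum, an enzyme that removes the lipid from Wnt ligands, had 7.82, 9.67 and 7.35 CPM in the anterior and 4.57, 3.97 and 6.51 CPM in the posterior libraries. It was higher in every anterior library without passing (log2 fold change -0.72, SE 0.23, edgeR adjusted p = 0.113). As a share of the summed TPM of the class, Tcf7 made up 55.04%, 54.8% and 40.1% in the anterior libraries and 15.7%, 19.2% and 25.2% in the posterior libraries, and Apcdd1 went from 11.6% ± 1.92 to 34.6% ± 4.34 (SD, n = 3 each).

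Export of Wnt ligands needs Porcn, which adds their lipid, and Wls, which carries them to the cell surface. Neither was called. Wls had 255, 282 and 276 CPM in the anterior and 230, 247 and 279 CPM in the posterior libraries, with a log2 fold change of -0.10 (95% interval -0.35 to 0.14). Porcn had 5.92, 7.63 and 8.998 CPM in the anterior and 5.69, 6.07 and 5.55 CPM in the posterior libraries, with a log2 fold change of -0.38 (95% interval -0.84 to 0.08).

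Other genes of the pathway were taken from 4 further lists with 51 genes, of which 44 were tested and 9 were called (against 7.46% of all genes), 6 higher in anterior and 3 higher in posterior palate. Among the 24 genes of intracellular signal transduction, 2 were called, a share near that over all genes, both higher in the anterior palate: Tcf7l1, a TCF factor that mostly represses (log2 fold change -0.65, SE 0.11, edgeR adjusted p = 0.0153), and Tle3, a corepressor (-0.46, SE 0.08, edgeR adjusted p = 0.0180). None of the 4 receptors Ror1, Ror2, Ryk and Ptk7, which serve Wnt5a and polarity, was called. Of 11 further response genes tested, Dact1 (0.91, SE 0.11, edgeR adjusted p = 0.00398), Twist1 (0.74, SE 0.12, edgeR adjusted p = 0.0129) and Ccnd1 (0.69, SE 0.14, edgeR adjusted p = 0.0264) were higher in the posterior palate. Bambi, Sp5 and Sp8 were higher in the anterior palate, and Sp5 and Sp8 stood at or under 5.54 CPM in all libraries. Bambi, like Tcf7 and the summed osteoblast markers, was lowest in posterior replicate 1 and, among posterior libraries, highest in replicate 3. Like Sost, Sp8 passed the filter on low counts only through the anterior libraries, where it is high, so both had to differ to be tested. Sp5 had 24, 64 and 64 counts in the anterior and 14, 3 and 5 in the posterior libraries. The filter was met for Sp5 through the anterior libraries too, where it is high, so it favoured this direction. Dact1 was called in all 15 alternative fits and Sp8 in all 11 that tested it, while the other 7 lost their call in at least 1 fit. Without anterior replicates 1, 2 and 3 the count of 9 became 2, 1 and 3. Calls among all genes tested then numbered 522, 498 and 633, against 1169 with every library. Without posterior replicate 1 the count was 22, but 7119 of all 15349 genes tested were called in that fit. The rise to 22 was therefore not particular to these lists. Without posterior replicates 2 and 3 the count was 4 and 6, with 500 and 637 calls among all genes.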

How the data were processed

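Bulk RNA-seq was analysed from 3 anterior and 3 posterior 1/3 palatal shelf libraries of C57BL/6J mice at E14.0. The authors deposited read counts per gene for each library, unstranded and for either strand, unnormalized. Their methods name HISAT2, StringTie and the build mm10, and DESeq2 (version 1.30.1) for tests. The files have the layout of STAR gene counts, so the counting tool is uncertain. Counts of the reverse strand were used, since they exceeded those of the other strand by 19.0 to 23.1 times in every library, which keeps antisense genes apart. The 4 summary rows that name no gene were left out of library sizes; reads without a gene or with several made up 7.82% to 10.7% of the reads in the libraries.

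Symbols, exonic lengths and positions were taken from GENCODE M21 (GRCm38), matched with the identifier's version dropped (52073 of 56691 identifiers had a symbol), so positions are those of M21. Regions were compared with edgeR 4.0.16 (R 4.3.3), using TMM normalization, genes that reached 10 counts in 3 or more libraries, the quasi-likelihood test and Benjamini-Hochberg adjustment over all 15673 genes tested. The standard error is the fold change divided by the square root of F. CPM are scaled by TMM, TPM use exonic length, and a level or share is given as mean ± SD. The script was tested on simulated data. Alternatives were DESeq2 1.42.0, other normalizations and filters, unstranded counts, a length correction, a replicate block, a library-group term and leaving out each library. Fold changes are posterior over anterior.

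The 55 genes, the pathway and marker lists and the tests were chosen with earlier results of these data known. Among the 55 genes, values in every library were given for called genes, for the 2 most abundant genes of each class per TPM, and for genes that did not overlap between regions or whose call changed; sequences outside this rule are said to be chosen after the values were seen. The p-values measure the spread between 3 libraries a region. Replicate pairs differed by more than counting noise (chi-square per gene 3.48 to 6.29 among anterior libraries, 9.30 for posterior replicates 2 and 3, and 48.5 and 61.3 for replicate 1 against these).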

Additional observations from a re-analysis of the deposited data

How the results depend on the processing

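Of the 17 called genes, 13 were called in all 15 alternative fits and none changed sign. The count of 17 became 26 without a filter on low counts and 13 to 36 when a library was left out, with 36 without posterior replicate 1. The 7 higher in the anterior palate became 13 with DESeq2, 11 with library size only, 13 without the filter, 11 with the library-group term, and 5 to 15 when a library was left out. The 10 higher in the posterior palate became 8 to 21. Over all genes the 1169 calls became 1978 with DESeq2, 2162 without the filter, 7119 without posterior replicate 1, and 498 to 637 without another library. The 9 further pathway genes became 1 to 22 and the 28 called markers 15 to 50. The cause of these moves was not tested.

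Replicate numbers did not pair the libraries (correlations of same-numbered libraries -0.0635, 0.00636 and 0.0333). With a replicate block, 19 of the 55 genes were called, 8 and 11 by direction, 829 over all genes, and Tcf7 lost its call (edgeR adjusted p = 0.0583). Fzd1, Dkk1 and Wif1 gained a call in that fit (edgeR adjusted p = 0.0337, 0.0477 and 0.0383).

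Signs turned only in genes that were not called. With the library-group term the log2 fold changes were Wnt4 0.35, Fzd3 -0.050, Fzd6 -0.25, Fzd7 -0.14, Fzd8 -0.043, Fzd9 -0.22, Lrp4 -0.095, Lrp6 -0.043 and Nkd1 0.052, and with the length correction Lrp4 was -0.030. Leaving out a library gave ranges of -0.31 to 0.082 for Wnt4, -0.075 to 0.52 for Wnt6, -0.11 to 0.025 for Fzd2, -0.12 to 0.20 for Fzd9, -0.49 to 0.021 for Lrp5, -0.12 to 0.11 for Sfrp1 and -0.10 to 0.0017 for Nkd1.

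With CPM in place of TPM, the log2 ratio of class totals moved from 0.04 to -0.18 for ligands, from -0.01 to 0.26 for R-spondins and Lgr receptors, and from 0.14 to 0.67 for response genes, since long transcripts weigh more in CPM. The motif share of 14.3% became 4.76% with ATCAAAG. The 4 genes that were not tested, and Sfrp5 and Wnt3a, rest on few counts, and the anterior counts of Sfrp4 (54, 18 and 78) spread widely between libraries.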
